A study of Mus musculus with 9 samples.

Results

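The colon takes up, stores and expels transition metals through a small set of membrane carriers and binding proteins. This account follows 10 genes of that set across 9 RNA libraries of mouse colonic tissue: the manganese exporter gene Slc30a10, the zinc and manganese importer genes Slc39a4, Slc39a5, Slc39a8 and Slc39a14, the iron carrier genes Slc11a2 and Slc40a1, the transferrin receptor gene Tfrc, and the metallothionein genes Mt1 and Mt2. They were taken by symbol from a table of 55401 genes, and all 10 were measured well enough to be tested among 14506 genes that averaged 1 FPKM or more over the 9 libraries, FPKM being fragments scaled by transcript length and library size. Slc30a10 passed that level through the berberine and chow libraries, since it was close to 0 in the high-fat diet libraries. The 3 groups of 3 libraries were berberine, high-fat diet with AOM/DSS, and chow with AOM/DSS, all from wild-type mice. Berberine is a plant alkaloid, and AOM/DSS is the usual short form of azoxymethane with dextran sulfate sodium, chemicals that together raise tumours in the inflamed colon. The labels describe the berberine group by that treatment alone, so its diet, and whether it had AOM/DSS, are not given in the sources used here, nor are dose, time, strain and age. They also do not say whether the libraries came from separate animals, so the p-values measure the spread between these samples only.

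Manganese, zinc and iron share carriers. Members of the SLC39 family bring these metals into the cytosol from outside the cell or from vesicles, while members of the SLC30 family move them out of the cytosol, most of them zinc and Slc30a10 mainly manganese. In the gut, iron enters through the divalent metal carrier Slc11a2 on the luminal face and leaves to the blood through ferroportin, the product of Slc40a1. Metallothioneins are small cysteine-rich proteins that bind zinc and copper, and their genes are switched on by the zinc-sensing factor Mtf1.

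Levels are given as CPM (counts scaled to a common library size, with TMM factors), which do not correct for gene length, and levels of different genes are set side by side only as FPKM. The 9 libraries held 51961764 to 69007117 estimated counts each, and the steps between low values put 1 sequenced fragment at about 4 estimated counts. Summed pan-epithelial markers (Epcam, Vil1 and 4 others), which do not tell colon from other gut, spanned 9732 to 11590 CPM with berberine, 7890 to 10510 CPM with high-fat diet and 10380 to 11540 CPM with chow. Markers of absorptive colonocytes, the surface cells of the colon, summed to 4081 to 5938 CPM with berberine, 768 to 1528 with high-fat diet and 5331 to 12870 with chow, where replicate 2 was the highest. Goblet cell markers summed to 13730 to 25620 CPM with berberine, 924 to 6490 with high-fat diet and 9868 to 30060 with chow, and Paneth cell markers to 56.3 to 74.8 CPM with berberine, 480 to 791 with high-fat diet and 55.3 to 343 with chow. Smooth muscle markers summed to 3845 to 4590 CPM with berberine, 1169 to 5696 with high-fat diet, where replicate 3 was the highest, and 7091 to 10550 with chow. The part of these cells in the levels below was not tested. Genes on the opposite strand overlap Slc30a10, Slc39a5, Slc39a8, Slc11a2 and Mt2. Gm43429 and Gm43428 overlap Slc39a8 on its own strand, where strand cannot separate them. These overlaps come from the GENCODE M21 annotation, whose coordinates differ from the deposited ones for Slc11a2. Strand was marked in the libraries, but how the counting used it is not given in the sources used here. Some libraries stood apart for other tissues. Striated muscle markers summed to 1401 CPM in chow replicate 3 and to at most 53.4 CPM elsewhere, and adipocyte markers to 594.8 and 527.9 CPM in 2 berberine libraries and to at most 100.6 CPM elsewhere.

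Between high-fat diet and chow, Slc39a8 was higher with high-fat diet and Slc30a10, Slc39a5 and Slc40a1 were lower. Between berberine and high-fat diet, Slc30a10, Slc39a5, Slc39a14, Slc11a2 and Slc40a1 were higher with berberine and Slc39a8 and Mt2 were lower. None of the 10 passed the test between berberine and chow. The words changed, rose and fell are used of a gene whose adjusted p was under 0.05 by edgeR's quasi-likelihood test with Benjamini-Hochberg adjustment over all 14506 genes, and every adjusted p below without another name comes from that test. Thus 4 of the 10 genes changed with high-fat diet against chow, where 31.8% of all tested genes did, with 15.2% higher and 16.6% lower. With berberine against high-fat diet 7 of the 10 changed, where 30.7% of all tested genes did, with 15.8% higher and 14.9% lower. With library totals in place of TMM scaling, the median of all tested genes shifted to 0.13 and -0.12 in these 2 comparisons, and the calls of 2199 genes higher and 2414 lower with high-fat diet against chow became 2807 and 1890. The calls of 2292 genes higher and 2168 lower with berberine against high-fat diet became 1864 and 2689, while 4 and 6 of the 10 genes changed. The median log2 fold change of the 10 genes was -0.07 for high-fat diet against chow, beside 0.00 over all tested genes, and 0.60 for berberine against high-fat diet, beside -0.01. Both comparisons use the same 3 high-fat diet libraries, so their values for a gene are not independent of each other. The 3 libraries of each group did not overlap for 6 of the 10 genes between high-fat diet and chow, where 45.7% of all tested genes did not. Between berberine and high-fat diet they did not overlap for 7 of the 10, where 50.4% of all tested genes did not.

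**Figure D1:**
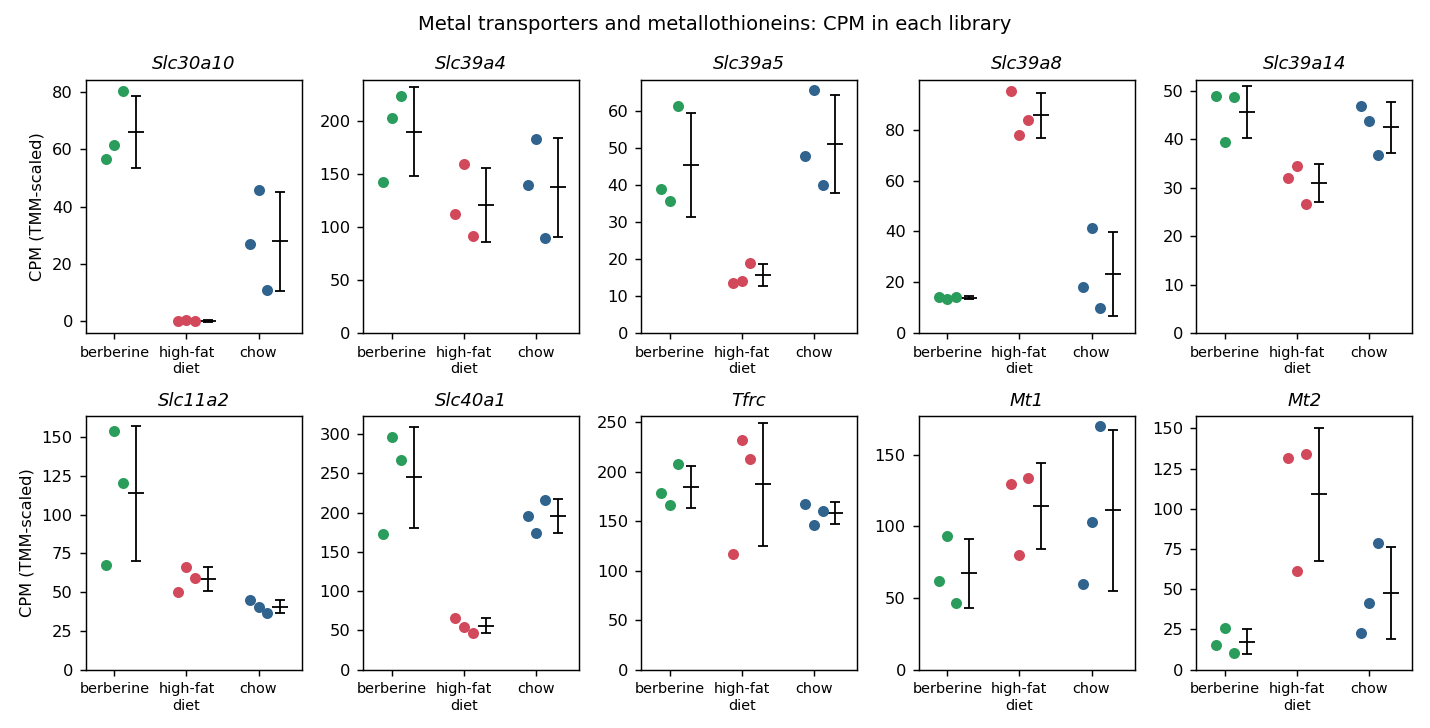
Level of each of the 10 genes in every library, in CPM on TMM-scaled library sizes, with 1 panel per gene. Points are the 3 libraries of each group and bars show the mean ± SD. Slc30a10 lies at or near 0 in all 3 high-fat diet libraries, Slc40a1 and Slc39a5 are lower there than in every other library, and Slc39a8 is higher there than in every other library.

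Slc30a10 (ENSMUSG00000026614, GRCm38 chr1:185454848-185468762, plus strand) encodes the manganese exporter of the luminal face of gut and liver cells, and its loss in mice and humans leads to manganese overload. It had 56.6, 61.3 and 80.2 CPM in the berberine libraries, 0, 0.50 and 0.14 CPM in the high-fat diet libraries, and 27.0, 45.6 and 11.1 CPM in the chow libraries. All 3 high-fat diet libraries lay below every other library, and the berberine libraries all lay above the chow libraries. The high-fat diet values rest on estimated counts of 0, 29 and 9, where a floor of 12 counts, or 3 fragments, equals 0.166, 0.206 and 0.193 CPM in those libraries. The transcript was therefore not seen in replicate 1 of high-fat diet, and in replicate 3 it lay under the floor, where its level is not well measured. Slc30a10 fell by 7.07 ± 0.98 on the log2 scale with high-fat diet against chow (adjusted p = 0.00136), at means of 0.214 CPM with high-fat diet and 27.9 CPM with chow. It rose with berberine against high-fat diet (log2 fold change 8.31 ± 1.03, adjusted p = 0.00081). Neither size is precise: without replicate 2 of high-fat diet, which holds most of the counts of that group, the log2 fold changes were -8.63 and 9.88, and without replicate 1, where the count is 0, they were -6.44 and 7.70. Between berberine and chow the difference did not pass (1.24 ± 0.72, 95% interval -0.41 to 2.89, adjusted p = 0.562). The same libraries differed in absorptive colonocyte markers, of which no marker was at 0 in any library. With high-fat diet against chow 8 of 8 fell (median log2 fold change -4.29), where 16.6% of all tested genes did. With berberine against high-fat diet 6 of 8 rose (median 3.62), where 15.8% of all tested genes did. The part of these cells in the result was not tested. In bulk tissue fewer cells of a type and less RNA per cell cannot be told apart.

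The promoter window of Slc30a10 is shown because the gene had the largest fold changes of the 10 in both comparisons with the high-fat diet group. It spans 250 bases before the start of the transcript and 50 after it, from RefSeq's GRCm38.p6 table, chr1:185454598-185454897 on the plus strand, and capitals mark matches to the core of the metal-responsive element, the site bound by Mtf1. The letters searched on both strands were TGCACNC and TGCGCNC.
Slc30a10 promoter: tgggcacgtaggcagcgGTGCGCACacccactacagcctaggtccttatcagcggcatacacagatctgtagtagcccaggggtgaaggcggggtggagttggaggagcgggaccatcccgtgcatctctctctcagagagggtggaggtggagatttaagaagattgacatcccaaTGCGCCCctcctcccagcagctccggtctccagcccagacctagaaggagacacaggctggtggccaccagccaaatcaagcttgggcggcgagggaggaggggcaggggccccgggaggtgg
Of the 10 genes, 6 had windows in that table, 9 windows in all, and Slc39a4, Slc39a14, Slc11a2 and Slc40a1 had none. The Slc30a10 window held 3 matches, of which 2 overlap on opposite strands in the first stretch of capitals. At least 3 matches were held by 1.97% of 32851 promoter windows of the same length, and at least 1 match by 25.7%. A match of these letters is a description and not evidence of binding.

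Among the zinc and manganese importers, the 4 genes did not move as one. Slc39a8 was higher and Slc39a5 lower in the high-fat diet libraries than in both other groups, Slc39a14 was slightly higher with berberine than with high-fat diet, and no difference passed for Slc39a4.

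Slc39a8 (ENSMUSG00000053897, chr3:135825279-135888572, plus strand) encodes an importer of manganese and zinc at the cell surface. It had 14.1, 13.2 and 14.4 CPM in the berberine libraries, 95.3, 77.9 and 83.7 CPM in the high-fat diet libraries, and 18.1, 41.5 and 9.67 CPM in the chow libraries. The berberine libraries lay close together, while the chow libraries spread widely and overlapped with them. Slc39a8 rose with high-fat diet against chow by 1.89 ± 0.44 on the log2 scale, or 3.71-fold (adjusted p = 0.0125). It fell by 2.62 ± 0.45 with berberine against high-fat diet, or 6.16-fold (adjusted p = 0.00352). Chow replicate 2 was the highest chow library also in Paneth cell markers, at 343 CPM beside 55.3 and 68.0 CPM in replicates 1 and 3, and these markers were highest in the high-fat diet libraries, as Slc39a8 was. Defa17 and Defa24 of that list were at 0 in every chow library. Chow replicate 2 also had the highest sum of absorptive colonocyte markers, at 12870 CPM, and those markers were lowest in the high-fat diet libraries. The part of either cell type in the level of Slc39a8 was not tested. Without chow replicate 2 the log2 fold change for high-fat diet against chow was 2.63 (adjusted p = 0.000947, with 0.00011 to 0.0447 over 19 alternatives), and that for berberine against chow was 0.00. With all libraries, berberine against chow gave -0.73 ± 0.43 (95% interval -1.71 to 0.25, adjusted p = 0.564).

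Slc39a5 (ENSMUSG00000039878, chr10:128395931-128401229, minus strand) encodes a zinc importer of the basolateral face of gut cells. It had 38.8, 35.7 and 61.3 CPM in the berberine libraries, 13.6, 14.1 and 19.0 CPM in the high-fat diet libraries, and 47.7, 65.7 and 39.9 CPM in the chow libraries. The high-fat diet libraries lay below all others, and the berberine and chow libraries overlapped. Slc39a5 fell by 1.71 ± 0.27 on the log2 scale with high-fat diet against chow, or 3.28-fold (adjusted p = 0.00238), and rose with berberine against high-fat diet by 1.54 ± 0.27, or 2.90-fold (adjusted p = 0.00375). Berberine and chow differed by -0.17 ± 0.26 on that scale (95% interval -0.77 to 0.42). The absorptive colonocyte markers were also lowest in the high-fat diet libraries, and their part in the level of Slc39a5 was not tested.

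Slc39a14 (ENSMUSG00000022094, chr14:70303469-70351425, minus strand) encodes an importer of manganese, zinc and iron, which in gut cells takes manganese back from the blood side. It had 48.8, 39.5 and 48.7 CPM in the berberine libraries, 31.9, 34.4 and 26.6 CPM in the high-fat diet libraries, and 46.9, 43.8 and 36.7 CPM in the chow libraries. The high-fat diet libraries were again the lowest, but by a small margin. Slc39a14 rose with berberine against high-fat diet by 0.56 ± 0.15 on the log2 scale, or 1.47-fold (adjusted p = 0.0255). That call is fragile: without berberine replicate 1, berberine replicate 3 or high-fat diet replicate 3 the adjusted p was 0.0752, 0.0835 and 0.0819, with a range from 0.00706 to 0.0845 over 19 alternatives, and with library totals in place of TMM scaling it was 0.0673. High-fat diet against chow did not pass (-0.45 ± 0.15, adjusted p = 0.0523), although the groups did not overlap, and it passed without chow replicate 3 (adjusted p = 0.0414, with 0.0299 to 0.197 over 19 alternatives).

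Slc39a4 (ENSMUSG00000063354, chr15:76612383-76617384, minus strand) encodes the luminal zinc importer whose loss causes the human zinc deficiency acrodermatitis enteropathica. It had 142, 202 and 223 CPM in the berberine libraries, 112.0, 159 and 91.3 CPM in the high-fat diet libraries, and 139, 183 and 89.5 CPM in the chow libraries. Each group overlapped both of the others. The log2 fold change was -0.19 ± 0.30 for high-fat diet against chow (95% interval -0.87 to 0.50, adjusted p = 0.675), and 0.65 ± 0.30 for berberine against high-fat diet (-0.04 to 1.33, adjusted p = 0.135).

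The 3 iron genes differed in which comparisons they passed. The exporter gene Slc40a1 was lower with high-fat diet than in both other groups, the importer gene Slc11a2 was higher with berberine than with high-fat diet, and Tfrc differed in no comparison by more than the spread between libraries.

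Slc40a1 (ENSMUSG00000025993, chr1:45908068-45926523, minus strand) encodes ferroportin, the known cellular iron exporter of mammals. It had 173, 296 and 267 CPM in the berberine libraries, 66.2, 54.8 and 47.1 CPM in the high-fat diet libraries, and 196, 174 and 217 CPM in the chow libraries. The highest high-fat diet library was below every other library by a wide margin. Slc40a1 fell by 1.80 ± 0.22 on the log2 scale with high-fat diet against chow, or 3.49-fold (adjusted p = 0.000708). It rose with berberine against high-fat diet by 2.13 ± 0.22, or 4.37-fold (adjusted p = 0.000398). Berberine against chow gave 0.32 ± 0.21 (95% interval -0.16 to 0.80, adjusted p = 0.609). Macrophages also export iron through ferroportin. Their markers summed to 216 to 291 CPM with berberine, 228 to 292 with high-fat diet and 147 to 247 with chow. Of the 6 tested, 1, C1qb, rose with high-fat diet against chow, where 15.2% of all tested genes rose. With berberine against high-fat diet 0 of 6 changed by edgeR, where 30.7% of all tested genes did. There 1 of 6 had an unadjusted p under 0.05, beside 42.3% of all tested genes. The absorptive colonocyte markers, given beside Slc30a10, were lowest in the same high-fat diet libraries. The part of either cell type in the level of Slc40a1 was not tested.

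Slc11a2 (ENSMUSG00000023030, chr15:100387898-100424092, minus strand) encodes the divalent metal carrier that brings ferrous iron into gut cells. It had 67.3, 154 and 120.1 CPM in the berberine libraries, 50.2, 66.0 and 59.3 CPM in the high-fat diet libraries, and 45.1, 40.3 and 36.7 CPM in the chow libraries. The 3 groups did not overlap, but berberine replicate 1 stood only just above the highest high-fat diet library. Slc11a2 rose with berberine against high-fat diet by 0.96 ± 0.27 on the log2 scale, or 1.94-fold (adjusted p = 0.0272). This call was lost without berberine replicate 2 or 3 (adjusted p = 0.0929 and 0.0734) and without high-fat diet replicate 1 or 3 (0.0808 and 0.0655), over a range of 0.00354 to 0.0929 in 19 alternatives. High-fat diet against chow was 0.52 ± 0.27 (95% interval -0.08 to 1.13, adjusted p = 0.169), and 0.0423 without berberine replicate 1, which enters that comparison through the shared estimate of spread (0.0423 to 0.339 over 19 alternatives).

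Tfrc (ENSMUSG00000022797, chr16:32608920-32632794, plus strand) encodes the transferrin receptor, through which cells take up iron bound to transferrin from the blood side. It had 179, 166 and 208 CPM in the berberine libraries, 116.5, 232 and 213 CPM in the high-fat diet libraries, and 168, 146 and 161 CPM in the chow libraries. The high-fat diet libraries held both the lowest and the highest value of all 9. Tfrc differed by 0.24 ± 0.23 on the log2 scale for high-fat diet against chow (95% interval -0.29 to 0.77, adjusted p = 0.468) and by -0.02 ± 0.23 for berberine against high-fat diet (-0.55 to 0.51, adjusted p = 0.954). Replicate 1 of high-fat diet decided the first of these: without it the log2 fold change was 0.49 and passed (adjusted p = 0.0382, with 0.0382 to 0.882 over 19 alternatives).

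Tfrc and Slc40a1 carry the best known iron-responsive elements of the set, short hairpins in the untranslated regions (UTRs) to which iron regulatory proteins bind when iron is low. In the 3' UTR of Tfrc such binding keeps the transcript from decay, and in the 5' UTR of Slc40a1 it holds back translation, which RNA levels do not show. The elements are printed as 27 bases from GENCODE M21 transcripts, with the loop in capitals. They were found as a C, 5 bases, the loop CAGTGN and 5 bases that pair with the 5 before it, G with T allowed.
Tfrc 3' UTR, chr16:32631220-32631246: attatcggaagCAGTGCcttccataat
Tfrc 3' UTR, chr16:32631599-32631625: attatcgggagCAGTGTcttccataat
Tfrc 3' UTR, chr16:32631664-32631690: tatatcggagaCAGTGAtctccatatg
Tfrc 3' UTR, chr16:32631711-32631737: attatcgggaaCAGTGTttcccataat
Slc40a1 5' UTR, chr1:45925466-45925492, minus strand: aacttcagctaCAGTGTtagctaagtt
The pattern was in a UTR of 2 of the 10 genes and of 0.731% of 21877 genes with a coding transcript. It asks that all 5 bases pair, so a hairpin with an unpaired base in that stem is missed. Slc11a2 had 0 matches in a UTR, which does not show that its transcripts lack an element. The 4 Tfrc elements lie in 1 of 3 coding transcripts of the gene and the Slc40a1 element in 1 of 4, and gut cells of the mouse are known to make a ferroportin transcript without it as well. The table gives 1 value per gene, so transcripts with and without the element were not told apart.

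**Figure D2:**
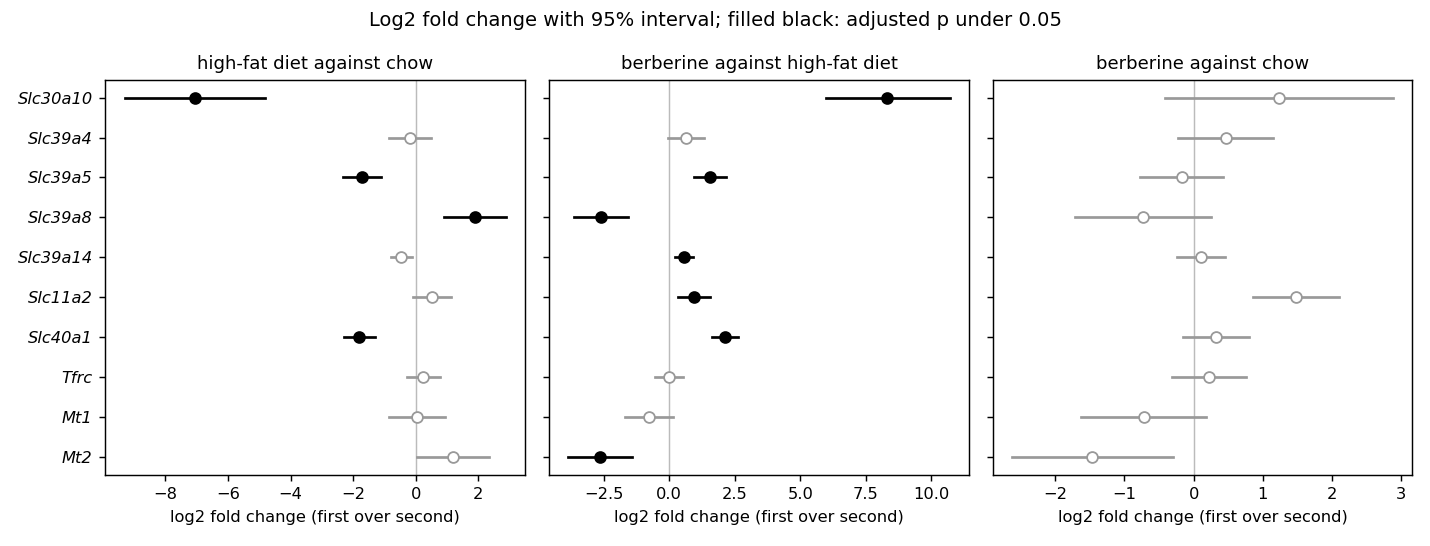
Log2 fold change of each of the 10 genes in the 3 comparisons, with the first group of each title over the second and bars for the 95% interval. Filled points had an adjusted p under 0.05. The horizontal axes differ in scale between panels. No point is filled for berberine against chow, and the widest interval is that of Slc30a10 in each panel.

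The metallothioneins Mt1 and Mt2 lie side by side on chromosome 8 and are known to be induced together by zinc and by stress hormones. Here Mt2 was lower with berberine than with high-fat diet, while no difference passed for Mt1.

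Mt2 (ENSMUSG00000031762, chr8:94172664-94173568, plus strand) had 15.3, 25.9 and 10.6 CPM in the berberine libraries, 132, 61.0 and 134 CPM in the high-fat diet libraries, and 23.0, 41.1 and 79.0 CPM in the chow libraries. Berberine and high-fat diet did not overlap, while the chow libraries reached into both. Mt2 fell by 2.65 ± 0.53 on the log2 scale with berberine against high-fat diet, or 6.30-fold (adjusted p = 0.00677). High-fat diet against chow did not pass (1.19 ± 0.51, 95% interval 0.04 to 2.34, adjusted p = 0.106), with an adjusted p of 0.0338 to 0.242 over 19 alternatives. It passed in 2 of them, without chow replicate 3 (log2 fold change 1.77, adjusted p = 0.0338) and by DESeq2 with all libraries (1.18, adjusted p = 0.0432). An antisense gene, Gm45774, overlaps Mt2, averaged 1.73 CPM with berberine, 11.6 with high-fat diet and 4.11 with chow, and fell with berberine against high-fat diet (-2.75 ± 0.57, adjusted p = 0.00799).

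Mt1 (ENSMUSG00000031765, chr8:94179082-94180327, plus strand) had 61.8, 93.4 and 46.6 CPM in the berberine libraries, 130, 80.0 and 134 CPM in the high-fat diet libraries, and 59.5, 103 and 170 CPM in the chow libraries. The chow libraries alone spanned nearly the whole range of the other groups. The log2 fold change of Mt1 was 0.04 ± 0.40 for high-fat diet against chow (95% interval -0.86 to 0.95, adjusted p = 0.948) and -0.77 ± 0.40 for berberine against high-fat diet (-1.68 to 0.14, adjusted p = 0.178). The sign of the first of these is not stable, since it lay between -0.26 and 0.50 over 19 alternatives.

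Within each library the ratio of Mt2 to Mt1, both as FPKM, varied less within each group than either level did. It was 0.525, 0.588 and 0.484 in the berberine libraries, 2.15, 1.62 and 2.12 in the high-fat diet libraries, and 0.82, 0.844 and 0.982 in the chow libraries. The 3 groups did not overlap, with high-fat diet the highest and berberine the lowest. The ratio averaged 1.96 ± 0.30 with high-fat diet and 0.882 ± 0.0874 with chow, a log2 difference of 1.15, and 0.532 ± 0.0524 with berberine, a log2 difference of -1.87 from high-fat diet and of -0.73 from chow (SD). A two-sided exact permutation test of each pair gave p = 0.10, the smallest that 3 libraries against 3 allow, and the ratio was chosen after its values had been seen. The ratio does not show which of the 2 levels differed. The longest run of identical bases between transcripts of Mt1 and Mt2 was 20, and whether some reads were placed on the wrong gene of the pair was not tested.

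The promoter windows of the pair are shown because the ratio of these 2 neighbours lay apart in the 3 groups, with the metal-responsive cores in capitals as above. They are Mt2, chr8:94172368-94172667, and Mt1, chr8:94178839-94179138, both on the plus strand of GRCm38.p6.
Mt2 promoter: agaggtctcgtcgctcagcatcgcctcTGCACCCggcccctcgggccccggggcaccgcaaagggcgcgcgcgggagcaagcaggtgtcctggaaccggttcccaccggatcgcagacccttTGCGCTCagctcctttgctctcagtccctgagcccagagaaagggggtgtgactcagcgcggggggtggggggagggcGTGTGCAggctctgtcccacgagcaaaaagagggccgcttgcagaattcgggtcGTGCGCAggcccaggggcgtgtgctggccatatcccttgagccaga
Mt1 promoter: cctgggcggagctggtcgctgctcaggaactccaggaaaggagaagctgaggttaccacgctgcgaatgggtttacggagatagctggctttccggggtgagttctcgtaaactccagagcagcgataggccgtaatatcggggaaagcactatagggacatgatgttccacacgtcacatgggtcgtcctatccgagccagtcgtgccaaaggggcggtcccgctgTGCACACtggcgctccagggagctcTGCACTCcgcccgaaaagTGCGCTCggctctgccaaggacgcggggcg
The Mt2 window held 4 cores and the Mt1 window held 3, against 0.517% of all promoter windows with at least 4 and 1.97% with at least 3. Metallothionein genes were already known as targets of Mtf1, so such counts are a description and not a result of these data. The Mt2 window also held 1 match to the antioxidant-responsive letters TGACNNNGC, found in 12.4% of windows, and the Mt1 window none, which says only that these letters are not in this window.

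Farther along the same cluster lie Mt4 and Mt3, known in the mouse mainly from stratified squamous epithelium and from the brain, and both were higher in the high-fat diet libraries than in every other library. Mt4 (chr8:94137197-94139031, plus strand) had 0.29, 0.13 and 0 CPM in the berberine libraries, 380, 176 and 421 CPM in the high-fat diet libraries, and 0.36, 0 and 0.18 CPM in the chow libraries. Its log2 fold change was 10.77 ± 1.01 for high-fat diet against chow (adjusted p = 0.000301) and -11.21 ± 1.04 for berberine against high-fat diet (adjusted p = 0.000267), sizes that rest on 0 to 22 counts per library outside the high-fat diet group. Mt4 reached the minimum of 1 FPKM through that group alone, averaging 758 FPKM there and 0.345 FPKM over the other 6 libraries, so that it had to differ to be tested. Mt3 (chr8:94152607-94154146, plus strand) had 2.33, 1.73 and 2.77 CPM in the berberine libraries, 497, 157 and 220.2 CPM in the high-fat diet libraries, and 2.83, 8.49 and 3.87 CPM in the chow libraries. Its log2 fold change was 5.85 ± 0.61 for high-fat diet against chow and -7.00 ± 0.64 for berberine against high-fat diet (adjusted p = 0.000402 and 0.000262). For high-fat diet against chow the 4 metallothionein genes thus stood in the order of their place on the chromosome, Mt4, Mt3, Mt2 and Mt1, from the largest fold change to the smallest, a pattern noticed after the values were seen. Of 10 tested genes within 150 kb of either side of Mt1, a window chosen after the values were seen, those beyond the cluster had smaller fold changes than Mt4, Mt3 and Mt2 between high-fat diet and chow, though not than Mt1: Nup93 differed by 0.86 ± 0.17 (adjusted p = 0.00675), Nudt21 by 0.65 ± 0.15 (adjusted p = 0.0113), and Ogfod1, Bbs2 and Rpl10-ps5 by -0.20 to 0.40 without passing. Squamous epithelium markers summed to 12.5 to 31.6 CPM with berberine and 45.0 to 148 with high-fat diet. With chow their sums were 318, 57.6 and 6.07 CPM in replicates 1, 2 and 3. By edgeR 0 of 5 changed for high-fat diet against chow or for berberine against high-fat diet, where 31.8% and 30.7% of all tested genes did. In each, 1 of 5 had an unadjusted p under 0.05, beside 43.2% and 42.3% of all tested genes. The part of such cells in the levels of Mt3 and Mt4 was not tested.

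**Figure D3:**
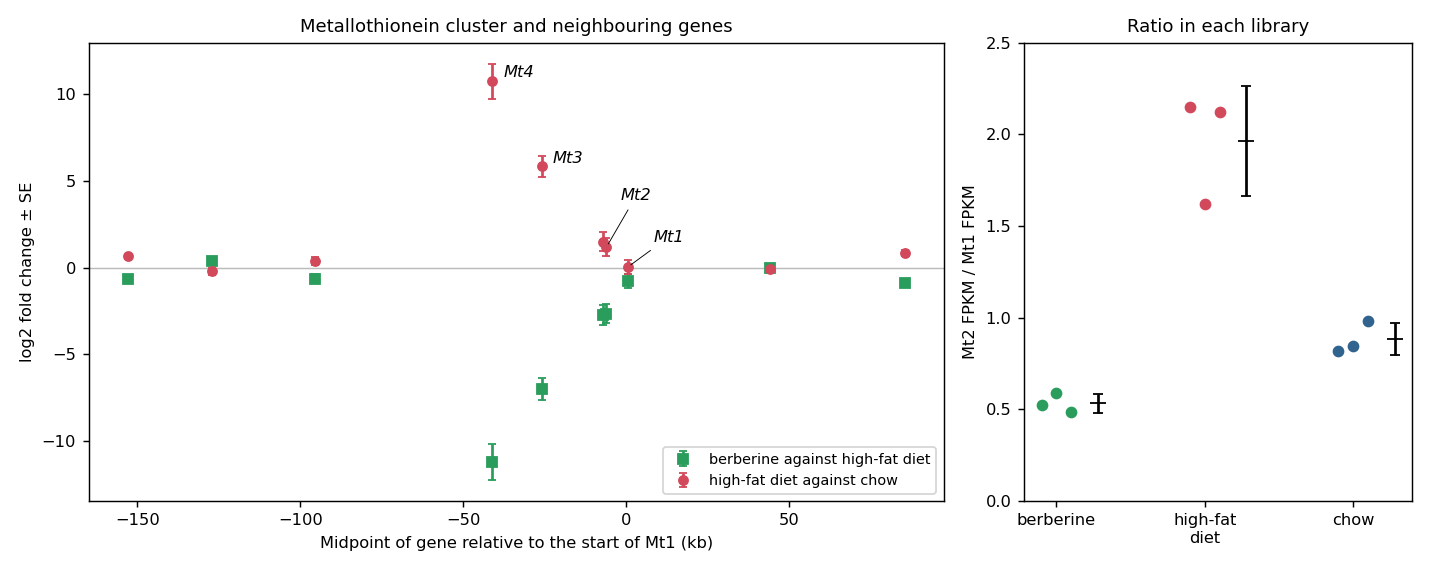
Left, log2 fold change ± SE of the metallothionein genes and of the other tested genes within 150 kb, by distance of the gene's midpoint from the start of Mt1 in kb, for berberine against high-fat diet (squares) and high-fat diet against chow (circles). Right, the ratio of Mt2 to Mt1 FPKM in each library, with mean ± SD per group. The fold changes are largest for Mt4 at -41.0 kb and shrink towards Mt1, and the ratio is at least 1.62 in the high-fat diet libraries and at most 0.982 in all others.

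Ranked per length, as mean FPKM, the 10 genes stood in a different order in each group. With berberine the highest were Slc39a4 (52.9), Mt1 (47.1), Tfrc (25.9), Mt2 (25.7) and Slc40a1 (23.6). With high-fat diet they were Mt2 (172), Mt1 (85.4), Slc39a4 (36.4), Tfrc (28.2) and Slc39a8 (10.4), and with chow Mt1 (76.3), Mt2 (69.6), Slc39a4 (37.5), Tfrc (21.96) and Slc39a5 (19.5). The lowest mean was 1.57 FPKM for Slc39a8 with berberine, 0.030 FPKM for Slc30a10 with high-fat diet and 2.52 FPKM for Slc39a8 with chow. Many neighbours in these orders overlapped between libraries: with berberine Mt1 stood clear above Tfrc, Slc30a10 above Slc39a14 and Slc39a14 above Slc39a8, and no other neighbours were apart. With high-fat diet Mt2, Mt1 and Slc39a4 stood apart from each other in that order, as did Tfrc above Slc39a8, Slc40a1 above Slc39a14 and Slc39a14 above Slc30a10. With chow only Slc39a4 above Tfrc and Slc40a1 above Slc11a2 were clear.

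Berberine against chow changed 0 of the 10 genes, where 0.0483% of all tested genes, or 7 genes, changed by edgeR, 0.0414% higher and 0.00689% lower. At an unadjusted p under 0.05 there were 2 of the 10, Slc11a2 and Mt2, beside 10.9% of all tested genes. DESeq2 called 1 of the 10 and limma 0. The gene DESeq2 called was Slc11a2, whose log2 fold change was 1.48 ± 0.27 by edgeR (adjusted p = 0.162). Its adjusted p was 0.000143 by DESeq2 and 0.0445 by edgeR without berberine replicate 1, within a range up to 0.34 over 19 alternatives. The berberine libraries lay above the chow libraries in Slc11a2 and Slc30a10 without overlap, as they did in 8.73% of all tested genes, while 18.1% did not overlap in either direction. Mt2 gave -1.46 ± 0.51 (95% interval -2.63 to -0.30, adjusted p = 0.388) and Mt1 -0.72 ± 0.40 (-1.63 to 0.18, adjusted p = 0.537). Missing the threshold does not show that the berberine and chow libraries were alike in these genes.

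Beyond the 10 genes, 66 other genes of zinc, manganese, iron, haem and copper handling were listed by function, of which 57 were tested. With high-fat diet against chow 13 rose, 8 fell and 36 did not pass, so that 36.8% changed beside 31.8% of all tested genes. With berberine against high-fat diet 6 rose, 16 fell and 35 did not pass, 38.6% beside 30.7%, and the count of 22 was 13 without berberine replicate 2. Slc30a2, Mt4 and Lcn2 are among the changed genes of both comparisons. They reached the minimum for testing through the high-fat diet group alone, so both shares include calls that the filter favoured. The medians were near 0 in both comparisons, at 0.02 and -0.02, as they were over all tested genes. None of the 57 changed with berberine against chow by edgeR or limma, 8 had an unadjusted p under 0.05 and DESeq2 called 4.

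Of the 7 zinc exporters tested, Slc30a2 rose and Slc30a1 and Slc30a4 fell with high-fat diet against chow. Slc30a2, which loads zinc into secretory vesicles and is known from Paneth cells of the small intestine and from the mammary gland, had 2.52, 1.56 and 0.25 CPM in the berberine libraries, 263, 246 and 230.2 CPM in the high-fat diet libraries, and 3.89, 0.58 and 0.65 CPM in the chow libraries. It was high in the high-fat diet libraries alone, averaging 64.4 FPKM there and 0.384 FPKM over the other 6 libraries, and had to differ to reach the minimum for testing. The fit gave a log2 fold change of 7.17 ± 1.02 against chow (adjusted p = 0.00153) and of -7.42 ± 1.04 for berberine against high-fat diet (adjusted p = 0.00142). These sizes rest on 15 to 238 counts per library outside the high-fat diet group. Over 19 alternatives they lay between 5.58 and 8.63 and between -8.07 and -5.62. Of the Paneth cell markers, whose sums are given above, 4 of 6 rose with high-fat diet against chow, where 15.2% of all tested genes did. With berberine against high-fat diet 5 of 6 fell, where 14.9% did. Both counts include Defa17 and Defa24, which were at 0 in all 3 chow libraries. Defa24 was also at 0 in berberine replicates 1 and 3, and Defa17 in replicate 3. The minimum for testing thus favoured the calls of these 2 genes. The part of Paneth cells in the level of Slc30a2 was not tested. Slc30a1, the zinc exporter of the cell surface and a target of Mtf1, averaged 42.5 ± 8.13 CPM with berberine, 20.2 ± 3.16 with high-fat diet and 68.2 ± 14.8 with chow (SD, n = 3 each), and fell by 1.75 ± 0.22 on the log2 scale with high-fat diet against chow (adjusted p = 0.000801). It rose with berberine against high-fat diet by 1.07 ± 0.21 (adjusted p = 0.0067). The fall of Slc30a4, a vesicle zinc carrier, was less firm (-1.28 ± 0.35, adjusted p = 0.0237), since it kept its call in 11 of 19 alternatives.

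Of the 8 other SLC39 importers tested, Slc39a6 and Slc39a10, both zinc importers of the cell surface, rose with high-fat diet against chow (1.21 ± 0.17, adjusted p = 0.00151, and 0.83 ± 0.25, adjusted p = 0.033) and Slc39a3 fell (-0.40 ± 0.11, adjusted p = 0.0268). With berberine against high-fat diet Slc39a6, Slc39a10 and Slc39a13 fell by 1.15 ± 0.17, 0.83 ± 0.25 and 1.14 ± 0.33 (adjusted p = 0.00197, 0.0333 and 0.0307) and none rose. Slc39a6 kept its call in all 19 alternatives of both comparisons, Slc39a10 in 12 and 14, Slc39a13 in 15 and Slc39a3 in 8. Mtf1, the zinc-sensing activator of the metallothionein genes, averaged 39.0 ± 4.8 CPM with berberine, 25.6 ± 4.60 with high-fat diet and 31.6 ± 2.15 with chow. It rose with berberine against high-fat diet by 0.61 ± 0.16 (adjusted p = 0.0233, kept in 13 of 19 alternatives), and high-fat diet against chow did not pass (-0.30 ± 0.16, adjusted p = 0.192).

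Of the 12 genes of iron reduction, oxidation and delivery tested, Lcn2, Steap4, Cp and Pcbp1 rose and Steap3 and Heph fell with high-fat diet against chow. Lcn2, a protein that withholds bacterial iron carriers, averaged 1.93 ± 0.73 CPM with berberine, 101 ± 102 with high-fat diet and 1.11 ± 0.43 with chow, and rose with high-fat diet against chow by 6.51 ± 0.89 (adjusted p = 0.00126). It too reached the minimum for testing through the high-fat diet group alone, at 0.488 FPKM over the other 6 libraries. Its 3 high-fat diet libraries were at 216, 65.9 and 21.3 CPM, far apart from each other but all above every other library. Steap4, a metal reductase, rose by 2.36 ± 0.46 (adjusted p = 0.00581), Cp, a ferroxidase of the plasma, by 1.65 ± 0.36 (adjusted p = 0.0102), and Pcbp1, an iron chaperone of the cytosol, by 0.73 ± 0.10 (adjusted p = 0.00152). Heph, the ferroxidase that works beside ferroportin in gut cells, averaged 113 ± 18.5 CPM with berberine, 41.9 ± 11.5 with high-fat diet and 98.1 ± 39.5 with chow. It rose with berberine against high-fat diet by 1.44 ± 0.32 (adjusted p = 0.0105), while its fall with high-fat diet against chow (-1.23 ± 0.32, adjusted p = 0.0189) did not hold once replicate 1 or 3 of high-fat diet or replicate 2 of chow was left out, at an adjusted p of at most 0.0598. Steap3, the reductase of endosomes that works with the transferrin receptor, fell by 2.66 ± 0.52 with high-fat diet against chow (adjusted p = 0.00584) and rose with berberine against high-fat diet by 2.505 ± 0.51 (adjusted p = 0.00749). With berberine against high-fat diet 4 genes of the list fell and Heph and Steap3 rose. Lcn2 had a log2 fold change of -5.72 ± 0.86 (adjusted p = 0.00193), Cp of -1.55 ± 0.36 (adjusted p = 0.0134), Steap2, another metal reductase, of -1.04 ± 0.28 (adjusted p = 0.022) and Pcbp1 of -0.36 ± 0.10 (adjusted p = 0.0316). Of 19 alternatives Lcn2 kept this call in all, Cp in 18, Steap2 in 15 and Pcbp1 in 12.

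Of the 11 genes of iron storage and sensing tested, Epas1 and Hfe fell with high-fat diet against chow and the other 9 did not pass. Epas1 encodes HIF-2α, the factor known in mouse gut to drive Slc11a2 and Slc40a1. It averaged 183 ± 26.3 CPM with berberine, 45.9 ± 8.44 with high-fat diet and 122 ± 11.7 with chow, and the 3 groups did not overlap. Its log2 fold change was -1.41 ± 0.17 for high-fat diet against chow (adjusted p = 0.000697) and 1.99 ± 0.17 for berberine against high-fat diet (adjusted p = 0.000208). Slc40a1 changed in the same direction as Epas1 in both comparisons. Slc11a2 rose with berberine against high-fat diet, but with high-fat diet against chow it did not pass (0.52 ± 0.27, adjusted p = 0.169). The part of Epas1 in the levels of these genes was not tested. Hfe, a partner of the transferrin receptors in iron sensing, fell by 0.81 ± 0.24 (adjusted p = 0.033), kept in 10 of 19 alternatives. Fbxl5, which tags an iron regulatory protein for decay, and Ireb2, the gene of that protein, fell by 0.65 ± 0.13 with berberine against high-fat diet and 0.40 ± 0.12 (adjusted p = 0.00609 and 0.0333), and the second kept its call in 11 of 19 alternatives. The ferritin genes Fth1 and Ftl1 did not pass with high-fat diet against chow (-0.60 ± 0.24, adjusted p = 0.087, and -0.02 ± 0.18, adjusted p = 0.961).

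Of the 7 genes of haem handling tested, Hmox1, which breaks haem open and frees its iron, and Blvrb, a reductase downstream of it, rose with high-fat diet against chow by 1.83 ± 0.42 and 1.07 ± 0.15 (adjusted p = 0.012 and 0.00138). Both fell with berberine against high-fat diet, Blvrb with a log2 fold change of -1.24 ± 0.15 (adjusted p = 0.000731) and Hmox1 with -1.26 ± 0.42 (adjusted p = 0.0485), a call of Hmox1 that held in 6 of 19 alternatives. Of the 3 Golgi manganese genes, Atp2c2, a calcium and manganese pump of secretory epithelium, averaged 128 ± 16.8 CPM with berberine, 30.1 ± 12.5 with high-fat diet and 102 ± 15.7 with chow. It fell by 1.76 ± 0.31 with high-fat diet against chow (adjusted p = 0.00396) and rose with berberine against high-fat diet by 2.09 ± 0.32 (adjusted p = 0.00197). Of the 6 copper genes tested, the importer gene Slc31a1 and the chaperone gene Atox1 rose with high-fat diet against chow (0.95 ± 0.17 and 0.86 ± 0.17) and fell with berberine against high-fat diet (-0.67 ± 0.17 and -0.59 ± 0.17), with adjusted p from 0.00376 to 0.0328, and Atox1 kept the second call in 13 of 19 alternatives.

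**Figure D4:**
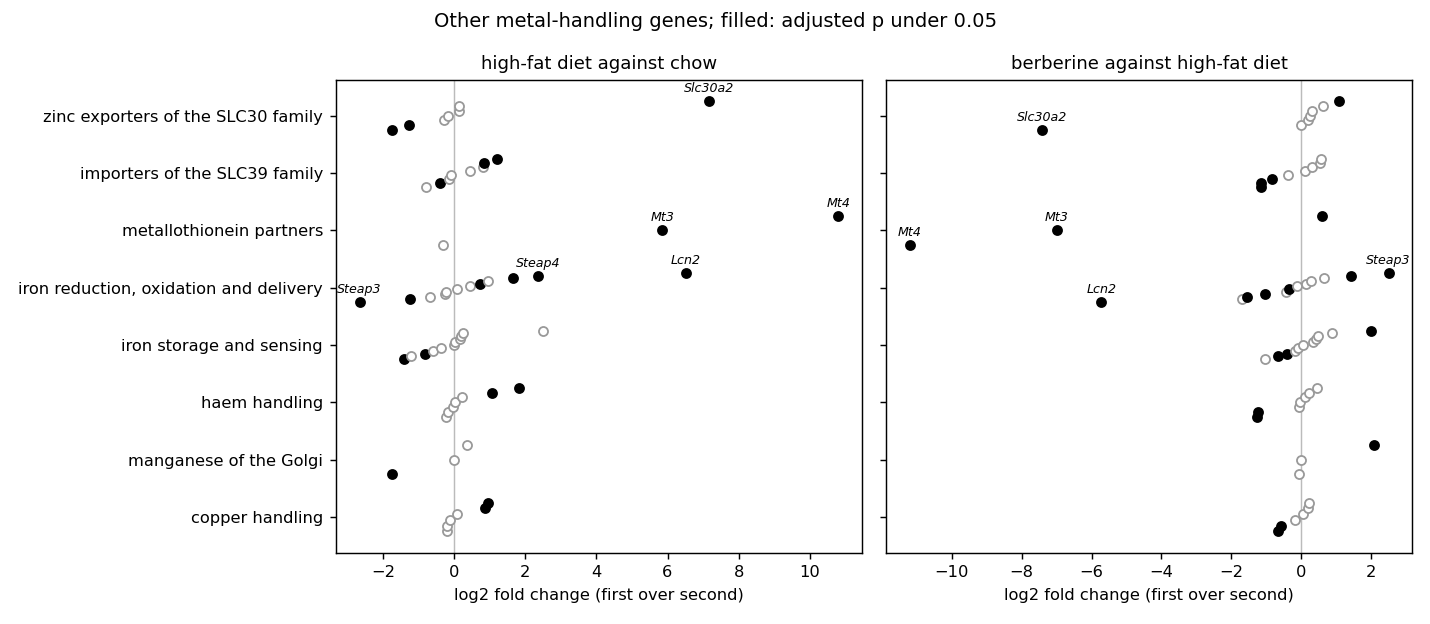
Log2 fold change of each of the 57 tested genes of metal handling outside the 10, by list, with 1 point per gene and the first group of each title over the second. Filled points had an adjusted p under 0.05, and some of those with the largest changes are named. Mt4, Slc30a2, Lcn2 and Mt3 lie farthest out in both panels.

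The genes whose profile over the 9 libraries came closest to a member were found by the root mean square difference of log2(CPM + 1) after each gene was centred on its mean. Nearest to Slc40a1 were Cyp2d34, Ace and Dpp4, at 0.152 to 0.197. Nearest to Slc39a5 were Tmem246, Oit1 and Gipc2, at 0.171 to 0.212. Nearest to Slc39a8 were Rdh1, Slc1a4 and Ifi202b, at 0.247 to 0.323, and each of these was likewise highest in the high-fat diet libraries. For Slc30a10 the nearest were Selenbp2, Selenbp1 and Hao2, at 0.751 to 0.892, and these too were lowest in the high-fat diet libraries. Mt2 had Pacsin3, Tent5b and Arnt2 at 0.54 to 0.568. Mt1 was nearer to Klf11, Rps27a and Cul9 (0.241 to 0.289) than to Mt2 (0.757). Slc39a4 was nearest to Cdh17, Dnajb9 and the zinc carrier Slc39a7 (0.138 to 0.157), Slc39a14 to Ago3, Wdr48 and Fam122b (0.0795 to 0.0872), Slc11a2 to Abtb2, Gna14 and Banp (0.308 to 0.347), and Tfrc to Nlrc4, Klf5 and Smdt1 (0.115 to 0.157). Such nearness is a description of 9 libraries, in which a gene that varies little has small differences from many others. Profiles were not scaled for the size of change, so a gene with large changes, such as Slc30a10, lies far from most genes.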

How the data were processed

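RNA from 9 mouse colonic samples was sequenced from poly(A) libraries that mark strand and carry molecular identifiers, per the labels' protocols. The submitters' processing notes name HISAT2 2.0.4, StringTie 1.3.4d, cutadapt 1.9, edgeR, DESeq2 and UMI-tools and the build GRCm38, without the role of each. The deposited table holds whole-number estimated counts per gene and library, not normalised between libraries, per the file headers. It also holds deposited FPKM values, which the authors list at 0.0001 where the count is 0.

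Counts of all 9 libraries were fitted in 1 edgeR 4.0.16 quasi-likelihood model with group as the sole term and TMM scaling (R 4.3.3). Genes with a mean under 1 FPKM were left out, and the 14506 tested genes held 98.65 to 99% of each library's counts. Changes are log2 fold changes ± SE, with Benjamini-Hochberg adjusted p over all tested genes and 95% intervals from the fit. The 19 alternatives were other filters, library totals, DESeq2 size factors, DESeq2 1.42.0, limma 3.58.1 on log2(FPKM + 1) and log2(FPKM + 0.1), only the 6 libraries compared, counts divided by 4, a replicate block, and each library left out in turn. Low counts piled up at multiples of 4, from which 1 fragment was taken as 4 counts. The floor covers counting error only.

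The 10 genes, the lists and the markers were chosen with earlier results of these data known. All 10 genes are named. Of each list of metal genes, the 3 with the smallest p among those changed in a comparison were named, with a few others to complete a count. Replicate numbers are shared between groups, but of 9 same-numbered pairs 2 had deviations that correlated over 0.1, so the numbers were not used as pairs. Iron-responsive elements were searched in GENCODE M21 transcripts and promoter letters in RefSeq windows of GRCm38.p6, in Python 3.11.15.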

Additional observations from a re-analysis of the deposited data

How the results depend on the processing

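Each of the 30 single-gene values (10 genes in 3 comparisons) was recomputed under 19 alternatives, which gave 570 values. Of these, 548 kept their direction where called and their side of the threshold, 13 lost their call, 9 gained one and 0 reversed. The lost calls all belong to Slc39a14 and Slc11a2 with berberine against high-fat diet. The gained calls belong to Slc39a14, Slc11a2, Tfrc and Mt2 with high-fat diet against chow and to Slc11a2 with berberine against chow. The cause was not tested.

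The count of 7 genes changed with berberine against chow was the least stable. It was 2 with the filterByExpr filter, with DESeq2 size factors, with only the 6 libraries compared and with counts divided by 4, and 380 by the DESeq2 Wald test. With 1 library left out it lay between 1 and 7. Of the 10 genes, 1 changed in that comparison by DESeq2, and 0 to 1 with a library left out. Of the other metal genes 4 changed by DESeq2, and 0 to 0 with a library left out. With berberine against high-fat diet, leaving out 1 library gave 2960 to 4740 genes in place of 4460 and 13 to 22 other metal genes in place of 22, the lowest of each without berberine replicate 2. The alternatives for the other metal genes were chosen after seeing the data.

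With the replicate number as a block, 4, 7 and 0 of the 10 genes changed for high-fat diet against chow, berberine against high-fat diet and berberine against chow, as without it, and 4344, 4286 and 2 of all genes. The same-numbered libraries correlated at -0.0986 to 0.16 in their deviations from group means, and 4 of 9 libraries were nearest to one of their own number.

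Depth limits the high-fat diet level of Slc30a10 and the berberine and chow levels of Mt4, which rest on a few fragments per library. The lowest berberine and chow levels of Slc30a2, at 15 and 31 counts, are limited as well. With 3 libraries per group, small differences in the other genes cannot be told from the spread between libraries.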
